A study of Mus musculus with 23 samples.

Results

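The axonemal dynein and motile cilium families were taken as every gene whose symbol begins with Dnah, Dnai, Dnaaf, Odad, Drc, Rsph, Tekt or Cfap followed directly by a digit. This rule found 99 of the 41073 genes in the count tables: 48 Cfap, 15 Dnah, 11 Dnaaf, 7 Rsph, 6 Tekt, 5 Dnai, 4 Odad and 3 Drc genes. They were measured by bulk RNA sequencing in lung epithelial cells that had been selected for EpCAM, an adhesion molecule of epithelia, and grown on transwell filters at an air-liquid interface. The labels give 4 groups: freshly isolated cells (3 libraries), cells on the day of airlift, when the apical side is first exposed to air and before any bacteria (6 libraries), cultures at day 4 treated with NTHi, nontypeable Haemophilus influenzae (7 libraries), and untreated control cultures at day 4 (7 libraries). All 4 groups came from wild-type C57BL/6 mice, given as C57BL/6J in the series' design text. Each of 3 experiments, A, B and C, held every group, with 1 library of fresh cells per experiment. The age and sex of the mice, the number of mice behind a library and the dose and form of the bacteria are not stated in the labels. The labels do not say whether libraries of 1 experiment came from separate cultures, so p-values measure the spread between these libraries, which may be technical.

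Motile cilia of the airway beat because dynein arms, fixed in rows along the outer microtubule doublets, walk on the neighbouring doublet. Outer arms set the beat frequency and inner arms shape the bend, radial spokes and the central apparatus pass signals to the arms, and the nexin-dynein regulatory complex links doublets. Dynein arms are assembled in the cytoplasm by a set of assembly factors before transport into the cilium. In the lung the multiciliated cells of the airways carry these organelles in large numbers, and loss of many of these genes causes primary ciliary dyskinesia in people. The transcription factors Foxj1 and the RFX family switch on most of this programme.

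Library totals lay between 32323375 and 39081663 counts, and family members took 0.0716 to 0.188% of them. The 10 most abundant genes took 7.72 to 9.95% of the counts in the cultured groups, against 23.4 to 23.9% in fresh cells. Scaling by library totals alone in place of the trimmed mean of M-values (TMM) moved the median log2 fold change of all genes to 0.49 in both comparisons with fresh cells, against 0.003 and 0.02 with TMM. Control C1 and NTHi C3 stood apart from the replicates of their group and experiment, at root mean square log2 distances of 0.307 and 0.311, against 0.118 to 0.229 for the other cultured libraries. The cell type label reads airway epithelial cells, and the 5 epithelial markers used for this check (Epcam, Cdh1, Krt8, Krt18 and Cldn7) summed to 3864 to 6776 CPM (counts scaled to a common library size) over all libraries. Markers of alveolar type 2 cells summed to 1022 to 1098 CPM at airlift and 77442 to 101321 CPM in fresh cells. Club and secretory markers summed to 19214 to 26865 CPM at airlift and 164376 to 184882 CPM in fresh cells, alveolar type 1 markers to 890 to 1307 CPM at airlift and 1530 to 1817 CPM in fresh cells, and basal markers to 23.8 to 101 CPM at airlift and 44.8 to 134 CPM in fresh cells. Each sum is led by the most abundant genes of its list, and single markers need not follow it. Marker levels at day 4 stand beside the comparisons they touch, and the part of these other cells in the results was not tested. In bulk RNA, fewer multiciliated cells and less RNA per multiciliated cell cannot be told apart.

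Promoters are shown for 5 members because the RFX and forkhead factors bind near the starts of ciliary genes and because members holding the same motif moved differently here. RefSeq promoters on GRCm38.p6, from 250 bases before to 50 after the transcription start, were matched for 60 of the 99 members. An X-box, the RFX motif, searched on both strands as the half-sites GTNNCC and GGNAAC with NN between them, lay in 5 of these 60 promoters (8.33%) and in 403 of 27025 promoters of all genes (1.49%). The forkhead core TGTTTAC, also searched on both strands, lay in 4 of 60 (6.67%) and in 1095 of 27025 (4.05%), and no member's promoter held both motifs. Capitals mark the X-box in the first 4 promoters, which belong to the spoke protein gene Cfap206, the tektin gene Tekt4 and the assembly factor genes Dnaaf5 and Cfap298; the fifth, that of the tektin gene Tekt5, holds neither motif.
Cfap206, chr4:34730157-34730456, minus strand: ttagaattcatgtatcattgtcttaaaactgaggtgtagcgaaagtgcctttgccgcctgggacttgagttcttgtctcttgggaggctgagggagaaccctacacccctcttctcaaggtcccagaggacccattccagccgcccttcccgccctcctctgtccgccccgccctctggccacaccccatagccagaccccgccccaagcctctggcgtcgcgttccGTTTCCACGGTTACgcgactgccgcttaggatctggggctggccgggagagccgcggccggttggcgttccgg
Tekt4, chr17:25471340-25471639, plus strand: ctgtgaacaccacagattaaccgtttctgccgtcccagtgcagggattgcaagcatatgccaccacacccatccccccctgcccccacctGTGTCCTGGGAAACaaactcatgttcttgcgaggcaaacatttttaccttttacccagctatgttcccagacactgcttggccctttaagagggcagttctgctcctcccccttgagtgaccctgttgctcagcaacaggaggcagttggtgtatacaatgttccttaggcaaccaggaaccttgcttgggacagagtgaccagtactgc
Dnaaf5, chr5:139149985-139150284, plus strand: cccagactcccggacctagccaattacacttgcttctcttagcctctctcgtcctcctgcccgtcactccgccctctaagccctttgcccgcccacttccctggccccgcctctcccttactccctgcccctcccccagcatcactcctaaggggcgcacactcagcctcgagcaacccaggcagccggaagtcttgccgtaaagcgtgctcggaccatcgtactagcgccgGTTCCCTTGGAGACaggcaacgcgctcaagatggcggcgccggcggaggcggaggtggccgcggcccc
Cfap298, chr16:90934800-90935099, minus strand: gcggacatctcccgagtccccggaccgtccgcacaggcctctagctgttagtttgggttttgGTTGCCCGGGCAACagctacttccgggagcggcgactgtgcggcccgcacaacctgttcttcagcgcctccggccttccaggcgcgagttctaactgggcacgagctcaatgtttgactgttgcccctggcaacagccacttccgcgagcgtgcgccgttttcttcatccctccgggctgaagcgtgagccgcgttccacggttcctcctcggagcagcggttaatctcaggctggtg
Tekt5, chr16:10395406-10395705, minus strand: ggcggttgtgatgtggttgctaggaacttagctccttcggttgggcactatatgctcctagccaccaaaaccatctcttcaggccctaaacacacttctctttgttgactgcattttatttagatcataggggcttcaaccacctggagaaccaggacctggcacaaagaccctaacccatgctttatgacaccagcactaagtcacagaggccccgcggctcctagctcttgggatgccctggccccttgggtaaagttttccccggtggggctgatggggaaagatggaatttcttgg
The match lies on the opposite strand in Cfap206 and Dnaaf5. The X-box began 23 bases before the start in Cfap206, 160 in Tekt4, 18 in Dnaaf5 and 188 in Cfap298. At airlift, relative to fresh cells, the log2 fold change was -1.35 ± 0.11 for Cfap206, -1.93 ± 0.16 for Tekt4, 0.36 ± 0.08 for Dnaaf5 and -0.03 ± 0.09 for Cfap298, so carriers of this motif did not share a direction, and Cfap298 was not called (adjusted p = 0.753). The fifth carrier was Cfap20dc, and the forkhead core was found for Cfap20, Cfap43, Dnah17 and Tekt3. These matches describe letters in this window and say nothing of binding.

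Summed over the 99 members, the families stood at less than the fresh level in every cultured group. The sum was 787 ± 119 CPM at airlift (SD, n = 6), 900 ± 167 CPM with NTHi at day 4 (n = 7) and 956 ± 218 CPM in day 4 control cultures (n = 7), against 1419, 1701 and 2402 CPM in fresh cells of experiments A, B and C. With TMM scaling every cultured library was below the lowest fresh library, and within each group experiment C was highest. As a share of library totals, 1 NTHi library and 3 control libraries, all of experiment C, lay above the lowest fresh library: members took 0.0716 to 0.118% with NTHi, 0.0736 to 0.142% in control cultures and 0.108 to 0.188% in fresh cells. Foxj1, the transcription factor that drives the multiciliated programme, was lowest at airlift: it averaged 59.3 ± 24.2 CPM (SD, n = 6) at airlift, 147 ± 49.0 CPM (SD, n = 7) with NTHi, 146 ± 52.8 CPM (SD, n = 7) in control cultures and 146 ± 62.3 CPM (SD, n = 3) in fresh cells. Its day 4 levels overlapped the fresh levels.

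**Figure D1:**
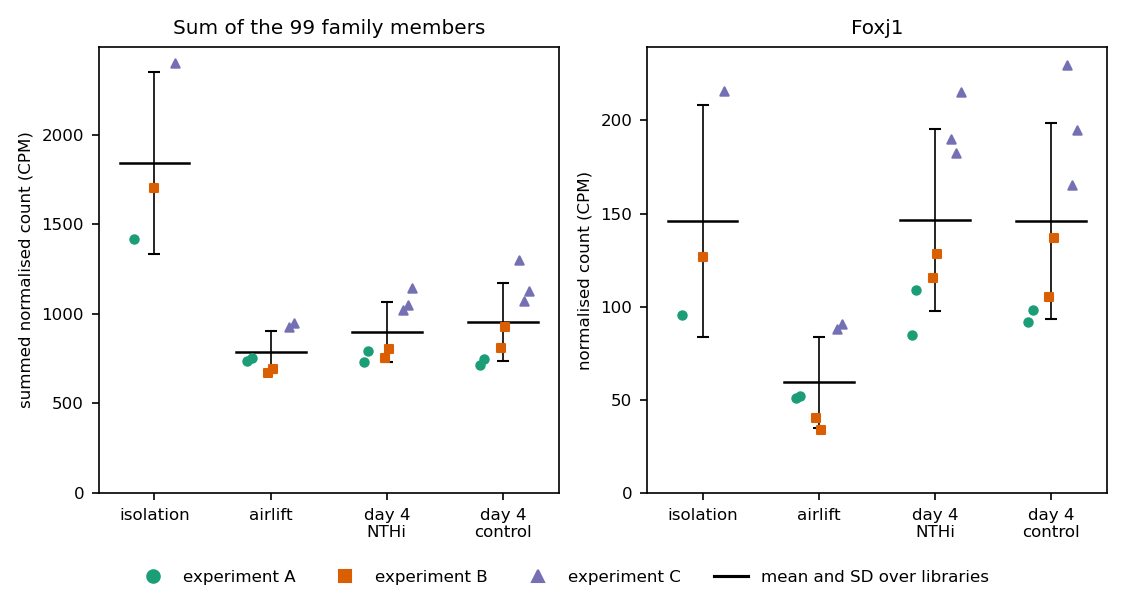
Summed normalised count of the 99 family members (left) and of Foxj1 (right) in CPM for each library, with the mean and SD of each group; colours and symbols mark experiments. The TMM-scaled family sum of all cultured libraries, at most 1301 CPM, lay below the lowest fresh library at 1419 CPM, while Foxj1 at day 4 spanned 85.1 to 230 CPM and fresh cells 95.8 to 216 CPM.

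The first comparison asks how the families changed between isolation and airlift. At airlift 82 of the 94 members tested were lower, 7 were higher and 5 were not called, with an adjusted p below 0.05 as the threshold in edgeR's quasi-likelihood test. The lower members include Tekt3, whose direction was set by the filter on low counts, as described below. Of all 18302 genes tested 74.6% were called in this comparison, 36.7% lower and 37.9% higher. The median log2 fold change was -1.45 over the members and 0.003 over all genes tested. Within experiments A, B and C the members' median difference on log2(CPM + 0.5) was -0.87, -1.44 and -1.40. Every dynein heavy chain and intermediate chain that was called was lower, as were all called members of the radial spokes, the central apparatus and the docking and regulatory complexes. Higher calls came from 3 assembly factors, 1 tektin and 3 Cfap genes whose products are not limited to motile cilia.

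Among the outer arm heavy chains, the motors on the outer face of the doublet, 5 of 5 were lower (median log2 fold change -1.07). Dnah5, whose human counterpart is a frequent site of primary ciliary dyskinesia mutations, had lowest, median and highest values of 5.56, 7.01 and 11.4 CPM at airlift, against 17.3, 21.5 and 36.4 CPM in fresh cells of experiments A, B and C. Later values keep this order, lowest, median and highest for cultured groups and A, B and C for fresh cells. The 2 groups did not overlap (log2 fold change -1.62 ± 0.14, adjusted p = 7.32e-09). Dnah9, which in human airways occupies the distal cilium, stood at 11.97, 12.7 and 16.5 CPM at airlift and 22.1, 28.3 and 36.1 CPM in fresh cells (-1.07 ± 0.08). Dnah11, which in human airways occupies the proximal cilium, had 8.59, 10.5 and 15.6 CPM at airlift against 18.3, 18.1 and 21.2 CPM in fresh cells. Its fold change was -0.77 ± 0.13 (adjusted p = 2.26e-05), and the call was lost at -0.28 with library totals alone. Dnah11 overlaps Cdca7l and Dnah17 overlaps Pgs1 in the RefSeq gene table, so reads there may belong to either gene. That table held 71 of the 99 members, and 16 of them overlapped another protein-coding gene. Members absent from it were not checked for overlap.

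The inner arm heavy chains held some of the deepest falls of the families, with 9 of 10 lower and a median log2 fold change of -2.01. Dnah10, part of the inner arm with a pair of heavy chains, had 5.53, 5.99 and 10.4 CPM at airlift, against 43.7, 51.0 and 73.7 CPM in fresh cells. These groups were far apart, and the log2 fold change was -3.02 ± 0.19 (adjusted p = 5.13e-11). Dnah6, a single-headed inner arm motor, stood at 9.65, 11.6 and 18.6 CPM at airlift and 39.9, 52.7 and 65.0 CPM in fresh cells (-2.02 ± 0.13). The 3 Dnah7 copies did not move by the same amount: Dnah7a fell by 3.15 ± 0.26, Dnah7c by 2.25 ± 0.14 and Dnah7b by 0.64 ± 0.15 on the log2 scale. They are near-identical copies among which reads may have been split, so their separate values are uncertain. Dnah14, at 200 counts over all 23 libraries, was the 1 inner arm member not called.

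All 5 intermediate chains, which hold the heavy chains on the doublet, were lower (median log2 fold change -1.54). Dnai1, an outer arm intermediate chain, had 2.06, 2.70 and 4.80 CPM at airlift, against 10.8, 11.2 and 20.2 CPM in fresh cells. The fresh values were all above the culture values (log2 fold change -2.21 ± 0.12, adjusted p = 7.20e-12). Dnai1 overlaps the gene Enho in the RefSeq gene table. Dnai2, the other outer arm intermediate chain, stood at 6.33, 7.26 and 10.9 CPM at airlift and 16.1, 21.5 and 35.3 CPM in fresh cells. All 4 docking complex genes were lower, and so were all 3 genes of the nexin-dynein regulatory complex. Odad3, which helps to seat the outer arm, had 1.48, 2.75 and 3.91 CPM at airlift, against 7.87, 9.11 and 13.8 CPM in fresh cells (-1.88 ± 0.19). Drc1, a core subunit of the regulatory complex, had 8.70, 10.9 and 15.5 CPM at airlift, against 31.2, 36.4 and 54.7 CPM in fresh cells (-1.81 ± 0.11).

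Radial spoke genes were lower in 10 of 10 tests (median -1.32) and central apparatus genes in 8 of 8 (median -1.84). Cfap65, a central apparatus protein, had 15.0, 18.7 and 26.4 CPM at airlift, against 102, 117 and 168 CPM in fresh cells. The log2 fold change was -2.70 ± 0.12 (adjusted p = 6.77e-13). Rsph1 and Rsph4a belong to the spoke head; their log2 fold changes were -1.64 ± 0.13 and -1.11 ± 0.14. Rsph14 fell (-2.77 ± 0.26) to 0.316, 0.511 and 1.11 CPM at airlift, against 2.94, 3.58 and 6.02 CPM in fresh cells. Rsph14 overlaps Gnaz in the RefSeq gene table. Rsph3a and Rsph3b are near-identical copies with uncertain separate values.

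The doublet microtubule proteins, which line the inside of the doublets, were lower in 14 of 14 tests with a smaller median of -0.98. Cfap20, a protein of the inner junction of the doublet, had 29.6, 31.9 and 35.0 CPM at airlift, against 46.7, 47.4 and 51.7 CPM in fresh cells (-0.62 ± 0.06), a call lost at -0.13 with library totals alone. Cfap53, which in people and mice is also needed for left-right asymmetry, also fell (-1.49 ± 0.10). Among the tektins, rod-shaped proteins of the doublet, Tekt2 had 1.79, 2.72 and 3.30 CPM at airlift, against 14.1, 14.5 and 30.8 CPM in fresh cells (-2.91 ± 0.17). Tekt5, best known from sperm flagella, went the other way: it had 1.86, 2.79 and 4.43 CPM at airlift, against 0.319, 0.487 and 0.443 CPM in fresh cells. No airlift library overlapped a fresh library, and the log2 fold change was 2.79 ± 0.27 (adjusted p = 2.96e-08). The 6 male germ cell markers used for this check (Prm1, Prm2, Tnp1, Tnp2, Acrv1 and Odf1) summed to at most 0.245 CPM at airlift and 0.452 CPM in fresh cells.

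The assembly factors were the most divided role, with 6 lower, 3 higher and 3 not called of 12 tested. Dnaaf1 and Dnaaf3, both needed for preassembly of dynein arms, fell by 1.77 ± 0.22 and 1.59 ± 0.12 on the log2 scale. Dnaaf1 overlaps Taf1c in the RefSeq gene table. Dnaaf3 stood at 8.02, 9.28 and 10.1 CPM at airlift, against 20.1, 26.8 and 37.4 CPM in fresh cells. Dnaaf10, which works with a general chaperone complex, had 13.2, 14.5 and 16.8 CPM at airlift, against 7.66, 7.51 and 8.34 CPM in fresh cells. The airlift values were all above the fresh values (log2 fold change 0.89 ± 0.11, adjusted p = 1.25e-06). Dnaaf2 rose by 0.60 ± 0.12 and Dnaaf5 by 0.36 ± 0.08. Of the 4 Cfap genes not limited to motile cilia, Cfap97 rose by 1.28 ± 0.09, Cfap36 by 0.36 ± 0.09 and Cfap410 by 0.33 ± 0.10, while Cfap418, known from photoreceptors, fell by 0.49 ± 0.10. Cfap410 was no longer called without the fresh library of experiment A (0.24), without experiment A (0.21) or without experiment B (0.26), and Cfap418 was not called with library totals alone (-0.01).

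**Figure D2:**
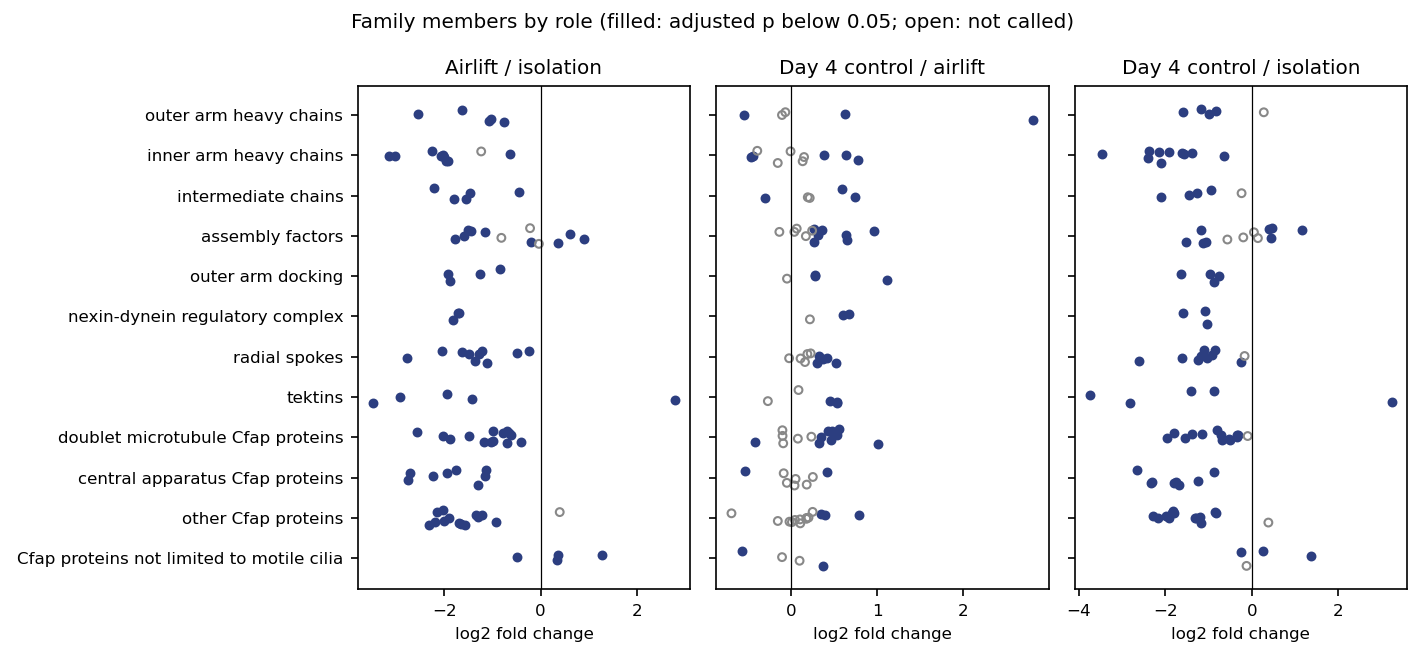
Log2 fold change of each tested member by role, for airlift over isolation, day 4 control over airlift and day 4 control over isolation; each point is 1 gene, filled where the adjusted p was below 0.05. Most points of every motor and structural role lie left of 0 in both comparisons with fresh cells, and the assembly factors and the Cfap genes not limited to motile cilia lie on both sides.

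Next, the untreated cultures at day 4 were set against airlift. Here 40 of 94 members were higher and 7 were lower, and 47 were not called, at a background of 54.5% of genes called, 26.9% higher and 27.7% lower. The median log2 fold change was 0.21 over the members and -0.02 over all genes tested. In experiment A there was no rise in the median: within experiments A, B and C the members' median difference on log2(CPM + 0.5) was -0.05, 0.42 and 0.31, with 41, 80 and 75 of the 94 members positive. The family sum averaged 731 CPM at day 4 and 746 CPM at airlift in experiment A, 868 CPM at day 4 and 680 CPM at airlift in B, and 1166 CPM at day 4 and 936 CPM at airlift in C. Higher calls were found in every role. The 7 lower members were Cfap410, Dnah17, Cfap47, Dnah2, Dnah10, Cfap141 and Dnai7. Club and secretory markers summed to 3977 to 5915 CPM in control cultures and 19214 to 26865 CPM at airlift, alveolar type 2 markers to 2988 to 3636 CPM in control cultures and 1022 to 1098 CPM at airlift, alveolar type 1 markers to 1951 to 2437 CPM in control cultures and 890 to 1307 CPM at airlift, and basal markers to 114 to 413 CPM in control cultures and 23.8 to 101 CPM at airlift. Macrophage markers summed to 568 to 1231 CPM in control cultures and 416 to 521 CPM at airlift. None of these summed ranges overlapped between the groups, but single markers went other ways. Scgb1a1 led the club and secretory sum, with 102053 to 156827 raw counts in control cultures and 710062 to 1061205 at airlift. Against it, Cyp2f2 (14454 to 39555 and 2948 to 6559), Cbr2 (32894 to 48916 and 8519 to 19878) and Scgb3a2 (711 to 4254 and 190 to 590) were higher in control cultures. Bpifa1 overlapped, and the macrophage marker C1qa was lower in control cultures (174 to 450 and 524 to 769). The part of these cells in the member calls was not tested. Counts depended on the experiments. Without experiment C 25 of 94 members were higher, beside 4831 of all 18359 genes tested. Without experiment B 23 of 94 were higher, beside 4115 of 18440 genes. In these 2 fits the share of members higher was near that of all genes. Without experiment A 3 members were lower, beside 3878 of 18535 genes. With no term for experiment 3 were lower, beside 4857 of 18302 genes.

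Dnah8 changed most (log2 fold change 2.81 ± 0.42, adjusted p = 1.90e-05). This outer arm heavy chain, known from mouse sperm flagella, had 0.360, 0.971 and 2.37 CPM in day 4 control cultures and 0.0491, 0.124 and 0.264 CPM at airlift. Airlift libraries held 2 to 10 counts of it and control libraries 14 to 100, so the level was low and the size of the change is imprecise. Dnah5 reached 7.61, 12.8 and 24.3 CPM in control cultures, against 5.56, 7.01 and 11.4 CPM at airlift (log2 fold change 0.63 ± 0.12, adjusted p = 2.05e-04). The ranges overlapped across experiments. Dnah9 stood at 9.80, 13.0 and 17.8 CPM in control cultures and 11.97, 12.7 and 16.5 CPM at airlift and was not called. Dnah17, another heavy chain known from sperm, had 1.47, 1.77 and 3.60 CPM in control cultures, against 2.40, 3.60 and 4.22 CPM at airlift (-0.55 ± 0.14).

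Odad3 had 3.88, 5.72 and 12.3 CPM in control cultures, against 1.48, 2.75 and 3.91 CPM at airlift. Only the lowest control library lay within the airlift range, and the log2 fold change was 1.11 ± 0.16 (adjusted p = 1.16e-05). Dnai1 had 3.65, 4.81 and 7.77 CPM in control cultures and 2.06, 2.70 and 4.80 CPM at airlift (0.75 ± 0.10). Dnai2 rose by 0.59 ± 0.11, Drc3 by 0.68 ± 0.11 and Drc7 by 0.61 ± 0.09. Cfap90, a doublet protein, had 1.10, 1.75 and 4.12 CPM in control cultures, against 0.844, 1.02 and 1.29 CPM at airlift (1.01 ± 0.19). Cfap52 and Cfap126, also of the doublet, rose by 0.55 ± 0.09 and 0.47 ± 0.09. In the spokes Rsph1 rose by 0.53 ± 0.11 and Rsph9 by 0.37 ± 0.08. Drc3 overlaps Tom1l2, Rsph1 overlaps Ubash3a and Rsph9 overlaps Mrps18a in the RefSeq gene table.

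Of the assembly factors 7 were higher and none of the 12 tested was lower by the edgeR test, with 8 at an unadjusted p below 0.05. Dnaaf9 had 35.3, 41.8 and 45.2 CPM in control cultures, against 22.4, 23.9 and 29.9 CPM at airlift, with no overlap (log2 fold change 0.65 ± 0.06, adjusted p = 2.18e-08). In the central apparatus only Cfap74 was higher and only Cfap47 was lower of 8 tested, and Cfap65 stood at 13.3, 21.4 and 35.2 CPM in control cultures and 15.0, 18.7 and 26.4 CPM at airlift, without a call. Calls of Cfap74, Cfap47, Dnah2, Dnah10 and Dnai7 in this comparison were each lost when a library or an experiment was left out. Cfap74 overlaps Gabrd in the RefSeq gene table. Cfap410 had 11.7, 13.0 and 13.8 CPM in control cultures, against 16.1, 19.9 and 21.4 CPM at airlift (-0.57 ± 0.08), with no overlap. Cfap141, a doublet protein, had 6.78, 9.18 and 13.0 CPM in control cultures and 10.5, 11.98 and 14.8 CPM at airlift (-0.42 ± 0.09).

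**Figure D3:**
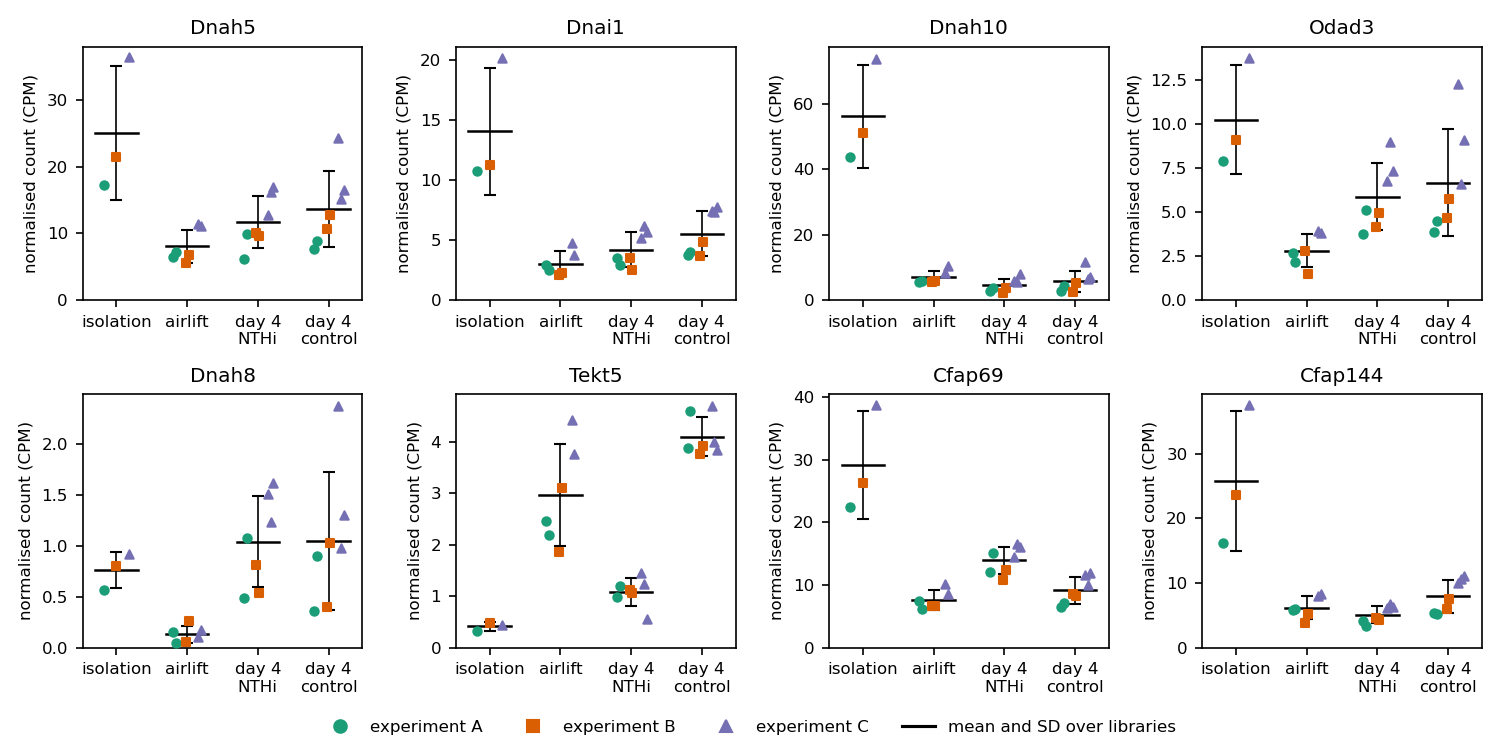
Normalised counts in CPM of 8 members in each library by group, with the mean and SD; colours and symbols mark experiments. Dnah10 stayed at 2.67 to 11.6 CPM in day 4 control cultures against 43.7 to 73.7 CPM in fresh cells, Tekt5 was lower with NTHi (0.562 to 1.45 CPM) than in control cultures (3.77 to 4.71 CPM), and Cfap69 had 10.8 to 16.5 CPM with NTHi and 6.45 to 11.9 CPM in control cultures.

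Set against fresh cells, day 4 control cultures had 77 members lower, 7 higher and 10 not called of 94, where 76.6% of all genes were called, 37.7% lower and 38.8% higher. Tekt3, whose direction was set by the filter, is again counted among the lower members. The median log2 fold change was -1.16 over the members and 0.02 over all genes tested. This comparison shares its libraries with both comparisons above. Alveolar type 2 markers summed to 2988 to 3636 CPM in control cultures and 77442 to 101321 CPM in fresh cells. Club and secretory markers stood at 3977 to 5915 and 164376 to 184882 CPM in the same order. Alveolar type 1 markers stood at 1951 to 2437 and 1530 to 1817 CPM. Basal markers stood at 114 to 413 and 44.8 to 134 CPM, and macrophage markers at 568 to 1231 and 487 to 539 CPM. The part of these cells in the member calls was not tested. Dnah10 was lowest among well-counted members at -3.47 ± 0.18, with 2.67, 5.30 and 11.6 CPM in control cultures and 43.7, 51.0 and 73.7 CPM in fresh cells. Tekt2 (-2.82 ± 0.16), Cfap65 (-2.66 ± 0.12) and Rsph14 (-2.61 ± 0.25) were next. Dnah5 (-0.99 ± 0.14), Dnai2 (-0.96 ± 0.13) and Odad3 (-0.77 ± 0.18) were lower by less, and Dnah8 was not called (0.28 ± 0.44, adjusted p = 0.572). Odad3 was not called with library totals alone (-0.29) or with no experiment term (-0.65). Cfap97 (1.38 ± 0.09), Dnaaf10 (1.16 ± 0.11), Dnaaf9 (0.45 ± 0.07) and Tekt5 (3.24 ± 0.27) were higher.

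Regulators of the programme were set beside the families in this comparison. Foxj1 had 92.0, 137 and 229.6 CPM in control cultures, against 95.8, 126 and 216 CPM in fresh cells, and was not called (-0.11 ± 0.14, adjusted p = 0.472). Mcidas, a regulator that starts multiciliated differentiation, had 3.09, 8.60 and 20.4 CPM in control cultures and 0.957, 0.487 and 0.953 CPM in fresh cells (3.39 ± 0.45). Rfx2, an RFX factor of ciliary genes, was lower at each step: -1.56 ± 0.08 at airlift over fresh cells, -0.62 ± 0.07 at day 4 over airlift and -2.18 ± 0.08 at day 4 over fresh cells. Of 14 regulators of the multiciliated programme, 11 were lower and 3 higher at airlift over fresh cells, 8 higher and 3 lower at day 4 over airlift, and 5 higher and 5 lower at day 4 over fresh cells.

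Genes of motile cilia outside the named families gave a check list of 38. At airlift 35 of them were lower and 1 higher relative to fresh cells (median log2 fold change -1.31), among them the thioredoxin-domain gene Nme9 (-2.47 ± 0.13), the ruler protein gene Ccdc40 (-1.71 ± 0.10) and the inner arm light chain gene Dnali1 (-1.82 ± 0.10). At day 4 over airlift 24 were higher and 2 lower (median 0.34), with the dynein light chain gene Dynlrb2 at 1.02 ± 0.11, the spoke gene Lrrc23 at 1.61 ± 0.21 and Meig1 at 1.38 ± 0.19. Intraflagellar transport, the cargo system of primary and motile cilia alike, was split at airlift over fresh cells, with 12 of 30 genes lower and 10 higher (median -0.08). Ift52 rose by 0.94 ± 0.06 and Dync2li1 fell by 1.21 ± 0.09 at that step. At day 4 over airlift 18 of the 30 were higher and none was called lower by the edgeR test, where 18 had an unadjusted p below 0.05, and Dync2li1 stood at 0.79 ± 0.07.

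The last comparison asks whether these genes differed with NTHi in cultures of the same age. With NTHi 23 of 92 members tested were lower and 5 were higher, and 64 were not called. Of all 16337 genes tested 40.5% were called, 20.4% lower and 20.1% higher, so the share of members called was below the background. The median log2 fold change was -0.16 over the members and -0.0001 over all genes tested. Markers of other cells also differed in level: alveolar type 2 markers summed to 1098 to 1330 CPM with NTHi and 2988 to 3636 CPM in control cultures, and club and secretory markers to 2364 to 2943 CPM with NTHi and 3977 to 5915 CPM in control cultures. Alveolar type 1 markers summed to 920 to 991 CPM with NTHi and 1951 to 2437 CPM in control cultures, basal markers to 53.2 to 187 CPM with NTHi and 114 to 413 CPM in control cultures, and macrophage markers to 178 to 694 CPM with NTHi and 568 to 1231 CPM in control cultures. Single markers did not all follow these sums. Pdpn held 5634 to 11009 raw counts with NTHi and 2193 to 3762 in control cultures. Slc34a2 (11607 to 17745 and 6854 to 8463) and Lamp3 (3944 to 5193 and 2172 to 3517) were also higher with NTHi. Adgre1 was higher with NTHi except in NTHi C3. Ager, Hopx, Aqp5, Rtkn2, Sftpc, Sftpb, Marco, Ptprc and C1qa were lower with NTHi. The part of these markers' cells in the NTHi results was not tested. Apart from Tekt5 the changes were small, between -0.62 and 0.72. Foxj1 stood at 85.1, 129 and 215 CPM with NTHi and 92.0, 137 and 229.6 CPM in control cultures and was not called. The number of lower members, of 92 tested, fell to 10 without experiment B, beside 2517 of all 16389 genes. It fell to 9 without experiment C, beside 2773 of 16427 genes, and to 5 with no term for experiment, beside 2897 of 16337. Without NTHi C2 it was 15, beside 3139 of 16478 genes. The share of members lower was above that of all genes in the main fit and below it in these 4 fits. In every alternative fit 4 to 6 members were higher. Without control C1 and NTHi C3 together 20 members were lower, beside 3467 of 16353 genes.

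Tekt5 changed most of all members. It had 0.562, 1.13 and 1.45 CPM with NTHi, against 3.77, 3.93 and 4.71 CPM in control cultures. No library overlapped, and the log2 fold change was -1.92 ± 0.16 (adjusted p = 1.35e-07). Male germ cell markers summed to at most 0.0544 CPM with NTHi and 0.154 CPM in control cultures. Tekt2 and Tekt1 were also lower, at -0.43 ± 0.12 and -0.25 ± 0.08. Tekt1 was not called without experiment B (-0.24), without experiment C (-0.13) or without NTHi C2 (-0.22), and Tekt2 not without experiment B (-0.33) or C (-0.45).

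Among the motors, 4 of 5 intermediate chains, 3 of 9 inner arm heavy chains and 1 of 5 outer arm heavy chains were lower, and none of them was called higher by the edgeR test. The 3 inner arm chains were Dnah12, Dnah7a and Dnah7c. Dnah7a and Dnah7c are among the near-identical Dnah7 copies, so their separate values are uncertain. Dnah11 had 6.35, 8.07 and 11.6 CPM with NTHi, against 8.43, 11.9 and 15.0 CPM in control cultures. Within each experiment every NTHi library lay below every control library (log2 fold change -0.42 ± 0.11, adjusted p = 0.00564). Dnai1 had 2.55, 3.51 and 6.22 CPM with NTHi and 3.65, 4.81 and 7.77 CPM in control cultures, with the same order within each experiment (-0.39 ± 0.09). Its call was lost without experiment C (-0.38) and with no experiment term (-0.40). Dnai7, also grouped with the intermediate chains, was lower at -0.42 ± 0.13, a call lost without experiment B (-0.31) or C (-0.42). Dnah5 stood at 6.20, 10.03 and 17.0 CPM with NTHi and 7.61, 12.8 and 24.3 CPM in control cultures and was not called, and none of the 4 docking complex genes was called by the edgeR test, 0 of them at an unadjusted p below 0.05.

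The other lower members were spread over the structural roles. Cfap144, a doublet protein, had 3.36, 4.62 and 6.81 CPM with NTHi, against 5.13, 7.45 and 11.03 CPM in control cultures. In experiment C the NTHi libraries had 6.12, 6.81 and 6.34 CPM and the control libraries 10.02, 10.54 and 11.03 CPM, and NTHi was also below control throughout experiments A and B (log2 fold change -0.62 ± 0.08, adjusted p = 1.13e-05). Cfap36, which binds a small GTPase and is not limited to motile cilia, had 29.7, 31.6 and 38.3 CPM with NTHi and 33.0, 39.3 and 45.9 CPM in control cultures (-0.25 ± 0.05). Cfap57 was lower at -0.51 ± 0.14, a call lost with no experiment term (-0.50). Cfap36 overlaps Ppp4r3b and Cfap57 overlaps Ebna1bp2 in the RefSeq gene table.

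The 5 higher members came from different structures. Cfap69, a central apparatus protein, had 10.8, 14.4 and 16.5 CPM with NTHi, against 6.45, 8.62 and 11.9 CPM in control cultures. In each experiment the NTHi libraries were all above the control libraries (log2 fold change 0.62 ± 0.09, adjusted p = 6.80e-05). Cfap47, also of the central apparatus, had 2.10, 2.57 and 3.17 CPM with NTHi and 0.874, 1.59 and 2.40 CPM in control cultures, again above control within each experiment (0.72 ± 0.15). The other 6 central apparatus members were not called. Cfap20 had 33.6, 37.6 and 38.7 CPM with NTHi, against 28.3, 30.6 and 32.1 CPM in control cultures, with no overlap (log2 fold change 0.27 ± 0.04, adjusted p = 1.08e-04). Dnaaf5 rose by 0.22 ± 0.04 and Drc1 by 0.31 ± 0.07. Drc1 had 12.7, 16.4 and 24.3 CPM with NTHi and 9.20, 14.2 and 20.9 CPM in control cultures and was not called with no experiment term (0.30). Dnaaf5 overlaps Prkar1b in the RefSeq gene table.

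**Figure D4:**
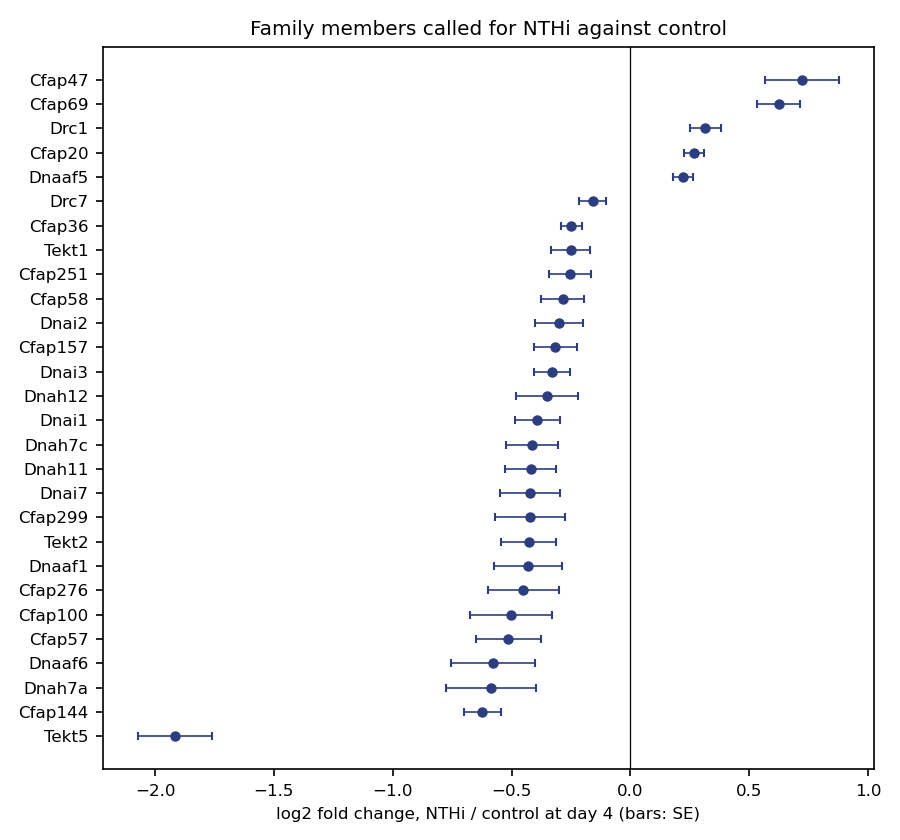
Log2 fold change with its SE for the 28 members called in NTHi against control cultures at day 4, in order of size. Tekt5 lies at -1.92, the other 22 lower members between -0.62 and -0.16, and the 5 higher members between 0.22 and 0.72.

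Computed within each experiment on log2(CPM + 0.5), the median NTHi difference over all 92 members was 0.005, -0.24 and -0.17 in experiments A, B and C, and 46, 12 and 14 members were positive, so in experiment A as many members were higher as lower. The family sum averaged 763 CPM with NTHi and 731 CPM in control cultures in experiment A, 779 CPM with NTHi and 868 CPM in control cultures in B, and 1073 CPM with NTHi and 1166 CPM in control cultures in C. Among called members the difference was negative in experiments A, B and C for 21 of the 23 lower members and positive in each for the 5 higher members, which had been chosen on the same libraries. The exceptions were Cfap276 and Tekt1, positive in experiment A. Tekt5 differed by -1.58, -1.45 and -1.57, Cfap144 by -0.44, -0.55 and -0.67, and Cfap69 by 0.95, 0.44 and 0.47 in experiments A, B and C. No member was called for an NTHi difference that varied between experiments by the edgeR interaction test, and 0% of the 16337 genes were called. An unadjusted p below 0.05 was found for 5 of 92 members and 675 of the 16337 genes. Outside the families 10 of 38 motile cilium genes were lower with NTHi and 2 higher, with Ak8, an adenylate kinase gene, at -1.18 ± 0.13, Meig1 at -0.57 ± 0.11 and the central apparatus gene Spag16 at -0.45 ± 0.08. The calls of Meig1 (-0.65) and Spag16 (-0.45) were lost with no experiment term, and that of Meig1 without experiment C (-0.36). Of 30 intraflagellar transport genes 8 were higher, with Ift57 at 0.38 ± 0.06, and 3 lower, with Wdr19 at -0.39 ± 0.08. Of 14 multiciliated regulators 2 were higher and none was called lower by the edgeR test, where 2 had an unadjusted p below 0.05.

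The same day 4 libraries were also compared between experiments. In the edgeR test 70 of 92 members differed between experiments, against 10% of all 16337 genes tested, and 69 of the 70 were highest in experiment C. Foxj1 moved with them: its control libraries had 92.0 and 98.0 CPM in experiment A, 105 and 137 CPM in B and 230, 165 and 195 CPM in C. The smallest p among members belonged to Cfap206, at 0.999 for experiment C over A and 0.32 for B over A on the log2 scale. Drc1 lay at 0.96 for C over A and Rsph1 at 1.003. Dnah17 was the exception, lower in C than in A by 0.63. Tekt5 and Cfap20 were not called for a difference between experiments. The family sum was also highest in experiment C in the other groups, at 1419, 1701 and 2402 CPM in A, B and C in fresh cells, with 1 library each, and 746, 680 and 936 CPM at airlift, where B was below A. Whether the experiments differ in the share of multiciliated cells or in RNA per cell cannot be told apart.

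**Figure D5:**
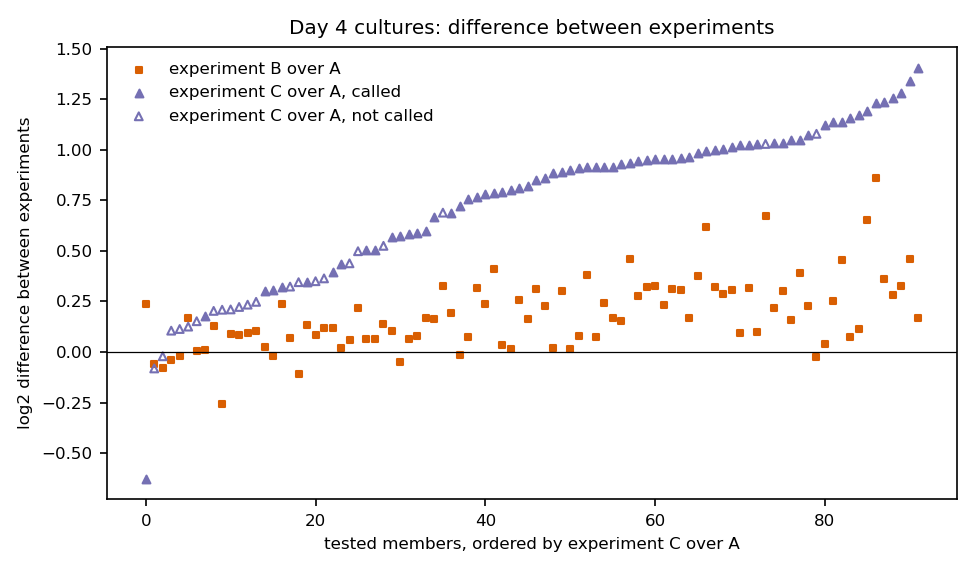
Log2 difference between experiments at day 4 for the 92 tested members, ordered by experiment C over A (triangles, filled where the test over the 3 experiments was called) with B over A (squares). Most triangles lie above 0.5 and above the squares, while Dnah17 lies at -0.63.

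The step from airlift to day 4 was also tested for a difference between experiments. The edgeR interaction test called 2 of 92 members, Cfap45 (adjusted p = 0.0137) and Rsph1 (adjusted p = 0.0379). The share of members called was near that of all genes tested, 2.08%. Cfap45, a doublet protein, averaged 12.6 CPM at day 4 and 13.2 CPM at airlift in experiment A, 18.3 CPM at day 4 and 9.15 CPM at airlift in experiment B, and 27.7 CPM at day 4 and 20.8 CPM at airlift in experiment C. Rsph1 averaged 9.59 CPM at day 4 and 9.62 CPM at airlift in experiment A, 14.5 CPM at day 4 and 8.74 CPM at airlift in B, and 21.9 CPM at day 4 and 12.2 CPM at airlift in C. Both were level in experiment A and higher at day 4 in B and C. In all, 39 of 92 members had an unadjusted p below 0.05 in this edgeR test, beside 3219 of all 16719 genes.

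Of the 99 members 5 were tested in no comparison because of low counts. Cfap107 had no count in any library, Cfap97d1 had 1, Dnaaf6rt 6, Rsph6a 17 and Tekt5l 21 counts over all 23 libraries. Tekt3 (118 counts) and Dnah14 (200 counts) passed the filter only in the comparisons of untreated cells. Tekt3 held 10, 28 and 24 counts in the fresh libraries and 0 to 8 in the airlift libraries. It was the 1 tested member that reached the minimum count in libraries of a single group, the fresh cells, so the filter itself set its direction. It is counted among the lower members at airlift and at day 4 relative to fresh cells, and these calls carry no weight.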

How the data were processed

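RNA was extracted with a Macherey Nagel kit, per the labels' protocols, and 23 bulk libraries were analysed. The 3 tables the authors deposited hold raw gene counts. The submitters' processing notes name STAR, DESeq2 and GRCm39, without roles or versions; the counting tool, its strand setting and the annotation were not given in the sources used here. In every library most counts below 20 were even, so counts divided by 2 were one alternative. Of 41098 lines per table, 25 that named no usable gene were left out.

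Counts were fitted with edgeR 4.0.16 in R 4.3.3 by the quasi-likelihood F-test with terms for group and experiment, TMM scaling, filterByExpr by group with a minimum count of 10, and Benjamini-Hochberg adjustment over all genes tested (adjusted p below 0.05). One fit held the 14 day 4 libraries and another the 16 untreated libraries. Log2 fold changes are given ± SE, with the SE derived from the F statistic. CPM values use TMM-scaled totals over all 23 libraries. A floor of 3 counts corresponds to 0.0710 to 0.106 CPM. No 2 replicates agreed within sampling noise. The steps were tested on simulated data. Gene lengths were not used, so levels are not compared between genes.

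The members and lists were chosen with earlier results of these data known. Named members are 16 of known roles, the called members with the 4 highest and 4 lowest fold changes per comparison, the 8 smallest p with NTHi, up to 2 per role by smallest p, and those whose change differed between experiments; of the other lists, up to 4 genes by smallest p. Members named beyond this rule were chosen after their values were seen. Alternatives were DESeq2 1.42.0, DESeq2 size factors, library totals alone, no filter, no experiment term, a replicate block, 1 fit on all libraries, and fits without each library or experiment. Replicate numbers were checked as pairs.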

Additional observations from a re-analysis of the deposited data

Results flagged for a closer look

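In 177 tests of 59 named members for a library far from the rest of its group, with experiments pooled, 4 were positive. Pooling experiments that differed widens the range of each group, and the tests share libraries. The 4 are therefore not set against a rate expected by chance. Control C1 stood highest and apart from the other control libraries for Dnah2 at 8.67 CPM, Cfap74 at 10.7 CPM and Cfap119 at 13.2 CPM, and NTHi C3 did so among the NTHi libraries for Dnah7a at 1.92 CPM. Both libraries also stood apart over all genes. The change at day 4 over airlift differed between experiments for Cfap45 (edgeR adjusted p = 0.0137) and Rsph1 (edgeR adjusted p = 0.0379), as described above. These are 2 of 92 members, a share near the 2.08% of all genes called. With no filter on low counts 19 members, and not 2, were called in that test, and the share of all genes there is not given. The part of control C1 in the interaction test was not tested.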

How the results depend on the processing

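With NTHi, 5 members were lower with no experiment term, 10 without experiment B and 9 without experiment C, against 23. Leaving out 1 library each gave 15 to 28, beside 3104 to 3471 of all genes. At day 4 over airlift, 23 members were higher without experiment B and 25 without experiment C, against 40. For lower members the count was 3 with no experiment term and 3 without experiment A, against 7. Leaving out 1 library gave 4 to 8 lower, beside 4679 to 5029 of all genes. The all-gene counts of the fits without an experiment or its term stand with each comparison above. With library totals alone 11 members were higher at airlift over fresh cells (median -0.96) and 13 at day 4 over fresh cells (median -0.69). Of all 18302 genes 10131 and 10149 were then higher, against 6928 and 7108 with TMM, so all genes shifted upward. The members' median at day 4 over fresh cells was -1.21 with DESeq2 size factors, -1.21 with the DESeq2 test and -1.11 with no filter. It was -1.09 with no experiment term, and -1.23 to -1.09 with 1 library left out. The experiment-dependent change from airlift to day 4 was called for 19 members with no filter, a count given without the share of all genes.

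Direction turned with library totals alone for Dnaaf9 (0.29) and Cfap298 (0.45) at airlift over fresh cells, and for Cfap410 (0.23), Cfap45 (0.13) and Foxj1 (0.37) at day 4 over fresh cells. Cfap298, close to 0 at airlift, was 0.011 with no filter, 0.067 without experiment C, and -0.078 to 0.017 without 1 library (above 0 without fresh C1 or airlift C1). Dnah8 at day 4 over fresh cells was -0.051 without experiment C. The cause was not tested.

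Whether the replicate numbers pair the libraries was not settled. Same-numbered NTHi and control libraries correlated at 0.22 in A, 0.40 in B, and -0.77, 0.38 and -0.59 in C. With 2 libraries per group in A and B, deviations from the group mean mirror each other, so each experiment gives 1 value. The negative values in C belong to the numbers of control C1 and NTHi C3, which stood apart. With the replicate block 5 members were higher and 21 lower with NTHi (median -0.16), and 35 higher and 5 lower at day 4 over airlift (median 0.21). No block could be fitted with the fresh cells, which have 1 library per experiment. Low counts limit Dnah8, Dnah14 and Tekt3.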
